A study of Homo sapiens with 12 samples.

Results

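Leukotrienes and prostaglandins are lipid signals that cells make from arachidonic acid, a fatty acid held in membrane phospholipids. The 10 genes described here encode the steps of their synthesis and were chosen by name, from among 20030 genes listed in the expression table. PLA2G4A, the cytosolic phospholipase A2, releases arachidonic acid. In the leukotriene branch, ALOX5 (5-lipoxygenase) works with its membrane partner ALOX5AP to make leukotriene A4. LTA4H then forms leukotriene B4, a chemoattractant for neutrophils, and LTC4S forms leukotriene C4, the parent of the cysteinyl leukotrienes. In the prostanoid branch, the cyclooxygenases PTGS1 and PTGS2 make prostaglandin H2, which PTGES, HPGDS and TBXAS1 turn into prostaglandin E2, prostaglandin D2 and thromboxane A2. Monocytes and macrophages are well-known producers of leukotriene B4, prostaglandin E2 and thromboxane, whereas leukotriene C4 and prostaglandin D2 are typical of mast cells and eosinophils.

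Both cell lines, MOLM-13 and THP-1, were each derived from a patient with acute monocytic leukemia and carry a rearranged MLL gene. The cells were incubated for 48 h with Jiyuan oridonin A (JOA), a compound from Isodon rubescens, at 0.5 µM in MOLM-13 cells and 2 µM in THP-1 cells, or with the solvent DMSO as control. The time is that of the sample records and the methods, and a figure legend of the study gives a longer one. mRNA was sequenced in 3 libraries of each of the 4 groups, 12 in all. According to the study, MOLM-13 cells carry an FLT3/ITD mutation and THP-1 cells have wild-type FLT3. Cell line, FLT3 status and dose changed together, so they cannot be told apart, and each line is 1 culture line grown without other cells. The study describes its experiments as repeated, but the sources used here do not tie each library to a separate culture, so the p-values measure the spread between these libraries, which may be technical.

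Values are FPKM, sequenced fragments scaled by exon length and by the mapped fragments of the library, which can be compared between genes. The sum of FPKM was 314128 to 325023 per library in MOLM-13 cells and 291127 to 304345 in THP-1 cells, and libraries of a line correlated at 0.987 to 0.995. How many fragments lie behind each value is unknown, and counting intervals cannot be given. Of 10 monocytic markers, 9 had a mean of at least 1 FPKM in every group, led by LYZ. The exception was CD14, at 0.0743 to 0.265 FPKM in MOLM-13 and 0.202 to 0.978 FPKM in THP-1 libraries. All 4 markers of MLL-rearranged leukemia, such as HOXA9, had a mean of at least 1 FPKM in every group. Platelet and erythroid markers summed to at most 2.01 and 0.695 FPKM in any library. Lymphoid markers summed to 27.7 to 31.3 FPKM in MOLM-13 and 4.16 to 7.68 FPKM in THP-1 libraries, led by NKG7. A list of epithelial and stromal markers summed to 23.8 to 27.3 and 26.9 to 34.8 FPKM. Most of this was PECAM1, which is not specific to epithelial or stromal cells. In any library EPCAM, COL1A1 and COL1A2 were at most 0.105, 0.998 and 0.105 FPKM, and KRT8 and KRT18 at most 2.41 and 8.20 FPKM. A list of 9 mast cell, eosinophil and basophil markers summed to 14.3 to 66.4 FPKM in MOLM-13 libraries, nearly all of it PRG2, and to 0.880 to 1.20 FPKM in THP-1 libraries. PRG2 stood at 61.9 and 64.0 FPKM in replicate 1 of the MOLM-13 control and JOA groups and at 13.8 to 16.0 FPKM in the other MOLM-13 libraries.

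Promoter windows were read for 9 of the 10 genes, all but ALOX5, from RefSeq on GRCh38.p14 (250 bases before to 50 bases after the start site, 300 bases in all). They are shown for ALOX5AP and TBXAS1, which differed most between the lines among the lower genes, and for PTGS2, the cyclooxygenase classed as inducible. The first pair lie at chr13:30713235-30713534 and chr7:139829014-139829313, both on the plus strand. The TBXAS1 and LTA4H windows, and 1 window of PTGS1, lie inside the longer gene spans of the GENCODE annotation. The GENCODE starts of TBXAS1 and LTA4H were therefore not searched. Capitals mark GAGGAAGT or its reverse complement ACTTCCTC, a sequence of the type bound by the ETS factor PU.1 of the myeloid lineage.
ALOX5AP: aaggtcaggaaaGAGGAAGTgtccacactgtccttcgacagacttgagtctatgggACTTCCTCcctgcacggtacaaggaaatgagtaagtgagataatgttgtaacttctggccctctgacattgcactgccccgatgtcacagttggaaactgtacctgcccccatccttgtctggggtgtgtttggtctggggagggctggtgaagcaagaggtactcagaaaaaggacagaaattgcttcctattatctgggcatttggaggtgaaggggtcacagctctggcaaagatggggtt
TBXAS1: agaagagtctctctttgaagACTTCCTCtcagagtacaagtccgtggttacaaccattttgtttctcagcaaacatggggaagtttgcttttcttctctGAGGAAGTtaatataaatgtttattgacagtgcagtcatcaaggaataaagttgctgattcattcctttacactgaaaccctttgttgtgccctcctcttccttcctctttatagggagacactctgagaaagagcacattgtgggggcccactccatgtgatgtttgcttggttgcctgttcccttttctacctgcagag
Each window held 2 matches. In ALOX5AP they began 238 and 194 bases before the start site, the second on the reverse strand, and in TBXAS1 they began 230 bases before it, on the reverse strand, and 151 bases before it. The other 8 windows, of 7 genes (PTGS1 has 2), held 0 matches, and 909 of 35116 promoters in the table (2.59%) held at least 1. The PTGS2 window lies at chr1:186680374-186680673 on the minus strand, with the TATA box TATAAA in capitals.
PTGS2: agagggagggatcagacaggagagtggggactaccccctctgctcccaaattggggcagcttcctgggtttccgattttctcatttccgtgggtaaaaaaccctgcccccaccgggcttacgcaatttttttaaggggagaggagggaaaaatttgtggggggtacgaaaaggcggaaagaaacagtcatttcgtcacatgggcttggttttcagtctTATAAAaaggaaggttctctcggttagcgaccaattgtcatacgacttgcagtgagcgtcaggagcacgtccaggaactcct
This match began 32 bases before the start site. TATAAA or TTTATA also occurred in PTGS1, TBXAS1 and HPGDS, and in 11.5% of all promoters. The GC box GGGCGG or CCGCCC occurred in LTC4S, PTGS1 and PTGES, and in 45.0% of all promoters. The CCAAT box (CCAAT or ATTGG) occurred in PTGS2, and in 34.6% of all promoters. No match overlapped a match to another of the 4 motifs. The motifs were chosen with these promoters in view, and a match is a description of letters, not a binding site.

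In the control libraries, ALOX5AP had the highest level of the 10 genes in both lines. In MOLM-13 cells it was at 75.7, 81.3 and 88.9 FPKM (82.0 ± 6.63, SD, n = 3), and 2.77% of all genes had a higher mean. In THP-1 cells it was at 22.4, 29.7 and 39.1 FPKM (30.4 ± 8.39, SD, n = 3). LTA4H and then PLA2G4A followed, and in all 4 groups the libraries of these 3 genes did not overlap one another. LTC4S, PTGS1 and, in MOLM-13 cells only, TBXAS1 followed at 1.48 to 3.03 FPKM, with ranges that overlapped their neighbours in that order. ALOX5, PTGS2 and PTGES were the lowest genes above 0 in MOLM-13 cells, at 0.186 to 0.384 FPKM, and could not be ordered. In THP-1 controls ALOX5 stood apart above TBXAS1, which stood apart above PTGS2.

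The enzyme ALOX5 was thus far less abundant as mRNA than its partner. The ratio of ALOX5AP to ALOX5 FPKM ran from 203 to 873 over the 6 MOLM-13 libraries and from 17.8 to 52.1 over the 6 THP-1 libraries. HPGDS was listed at 0 in all 12 libraries. Per library, 5142 to 6267 of the 20030 genes were listed at 0. The 8 housekeeping genes examined, never below 13.9 FPKM, had no value of 0, but genes at such levels do not bear on HPGDS.

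**Figure D1:**
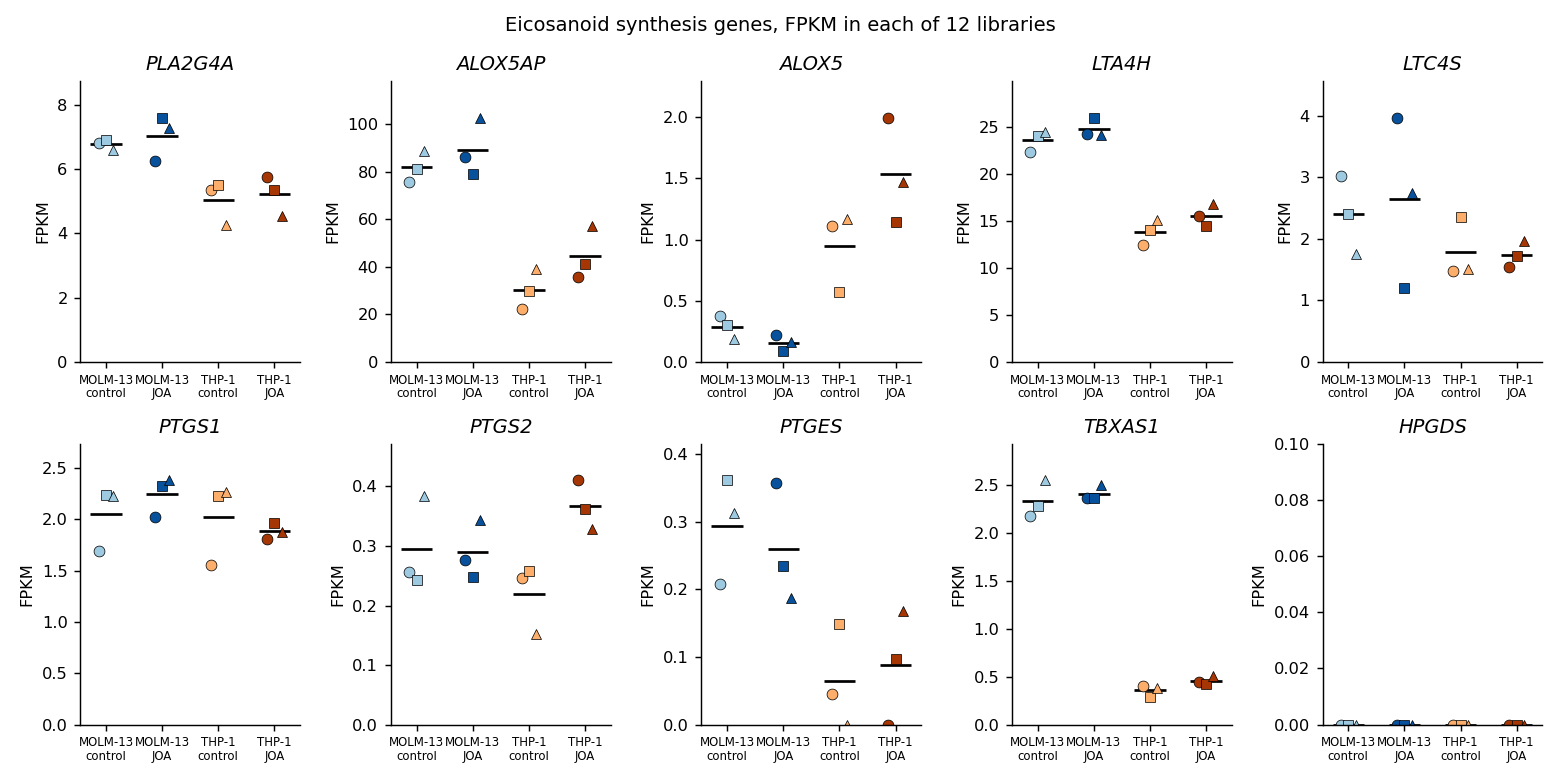
FPKM (y axis, from 0) of the 10 synthesis genes in each library of the 4 groups. Circles, squares and triangles are replicates 1, 2 and 3, and bars are group means. ALOX5 is higher and ALOX5AP, LTA4H and TBXAS1 are lower in THP-1 cells than in MOLM-13 cells, with no overlap between lines.

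The control libraries of both lines were then compared, to describe the starting point of each line. THP-1 cells had more ALOX5 mRNA and less ALOX5AP, LTA4H, TBXAS1 and PTGES mRNA. A gene was called when its adjusted p in limma was under 0.05 and its log2 fold change was at least 0.58 in size, on the scale log2(FPKM + 0.1), which understates changes of low genes. Of 12635 genes tested, 25% were called higher and 19% lower in THP-1 cells. Of the 9 synthesis genes tested, 1 was called higher and 4 were called lower. Their median log2 fold change was -0.43, against 0.06 over all genes tested.

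ALOX5 was at 0.372, 0.302 and 0.186 FPKM in MOLM-13 controls and at 1.11, 0.569 and 1.17 FPKM in THP-1 controls. Every THP-1 library was above every MOLM-13 library. The log2 fold change was 1.41 ± 0.286 (SE, limma adjusted p = 0.00233). ALOX5AP moved the other way, with a log2 fold change of -1.46 ± 0.177 (SE, limma adjusted p = 0.000120).

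LTA4H was at 22.3, 24.1 and 24.4 FPKM in MOLM-13 controls and at 12.5, 14.0 and 15.1 FPKM in THP-1 controls. The lines did not overlap, and the log2 fold change was -0.77 ± 0.0815 (SE, limma adjusted p = 5.55e-05). PLA2G4A was at 6.80, 6.90 and 6.61 FPKM in MOLM-13 and 5.35, 5.49 and 4.27 FPKM in THP-1 controls. Its log2 fold change of -0.43 ± 0.104 (SE) had a limma adjusted p of 0.00599 but fell short of the fold threshold.

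TBXAS1, the thromboxane synthase, showed the largest difference of the 10 genes. It was at 2.18, 2.28 and 2.55 FPKM in MOLM-13 controls and 0.406, 0.285 and 0.385 FPKM in THP-1 controls. The log2 fold change was -2.42 ± 0.145 (SE, limma adjusted p = 2.09e-06). It spans chr7:139777051-140020325 (GRCh38, GENCODE) on the plus strand and overlaps HIPK2 on the opposite strand. The library kit keeps strand, but whether the authors quantified by strand is not given in the sources used here.

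PTGES was at 0.207, 0.361 and 0.312 FPKM in MOLM-13 controls and 0.0459, 0.148 and 0 FPKM in THP-1 controls. It was called lower (log2 fold change -1.34 ± 0.335, SE, limma adjusted p = 0.00695), at levels near the pseudocount. With a pseudocount of 1 the log2 fold change was -0.28 and no longer passed the fold threshold, and with a filter of a mean of at least 1 FPKM PTGES and ALOX5 were not tested.

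LTC4S, PTGS1 and PTGS2 overlapped between the lines and were not called. PTGS1, the constitutive cyclooxygenase, was at 1.69, 2.24 and 2.23 FPKM in MOLM-13 controls and 1.56, 2.23 and 2.27 FPKM in THP-1 controls. Its log2 fold change was -0.03, with a 95% interval from -0.43 to 0.37, and its sign turned with TPM (0.05) and upper-quartile scaling (0.09). LTC4S was at 3.03, 2.41 and 1.76 FPKM in MOLM-13 and 1.48, 2.35 and 1.51 FPKM in THP-1 controls (log2 fold change -0.41, limma adjusted p = 0.141). LTC4S was called lower without replicate 2 of the THP-1 controls (-0.62, limma adjusted p = 0.0397) and without replicate 3 of the MOLM-13 controls (-0.61, limma adjusted p = 0.0415). PTGS2 was at 0.257, 0.242 and 0.384 FPKM in MOLM-13 and 0.247, 0.259 and 0.152 FPKM in THP-1 controls (log2 fold change -0.30, limma adjusted p = 0.232).

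**Figure D2:**
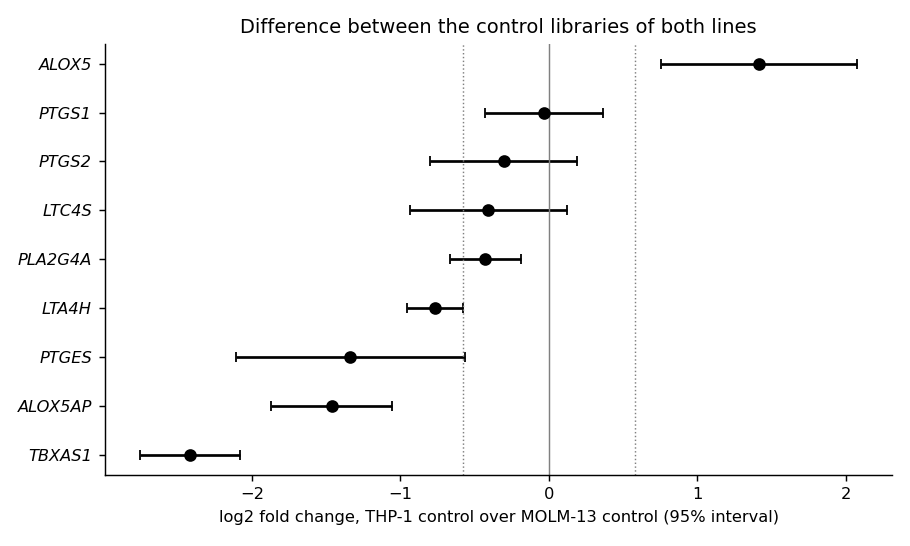
Log2 fold change of 9 synthesis genes between the THP-1 and MOLM-13 control libraries (x axis), 3 libraries each. Points are limma estimates, bars 95% intervals, and dotted lines the fold threshold of 0.58. TBXAS1 is lowest at -2.42 and ALOX5 is the only gene well above 0, at 1.41.

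The JOA libraries were then added to this comparison, without a test. Over the 6 libraries of each line, ALOX5 was higher in THP-1 cells without overlap, as were 35.7% of 12626 genes. PLA2G4A, ALOX5AP, LTA4H, PTGES and TBXAS1 were lower without overlap, as were 28.1% of those genes. LTC4S, PTGS1 and PTGS2 overlapped.

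Next, JOA was compared with control within each line. In THP-1 cells, ALOX5, its partner ALOX5AP, LTA4H, PTGS2 and TBXAS1 were each higher with JOA in all 3 same-numbered pairs of libraries, whereas PLA2G4A, LTC4S and PTGS1 were mixed. That is 5 of 8 synthesis genes tested, against 29.3% of 12712 genes tested. The unpaired comparison called 0 of the 8, with 0.134% of all genes called. Libraries with the same replicate number deviated together in both lines, so a fit was added that kept the replicate number as a blocking term. This blocked fit called 1 of the 8, ALOX5, with 1.27% of all genes called. The median log2 fold change of the 8 genes was 0.23, against 0.02 over all genes.

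ALOX5 was at 1.11, 0.569 and 1.17 FPKM in THP-1 controls (0.949 ± 0.330, SD, n = 3) and at 2.00, 1.14 and 1.47 FPKM with JOA (1.54 ± 0.431, SD, n = 3). The groups overlapped, because JOA replicate 2 lay below control replicate 3, and replicate 2 was lowest in both groups. Within pairs 1, 2 and 3 the log2 difference was 0.79, 0.89 and 0.31. The log2 fold change of 0.66 had an SE of 0.280 and a limma adjusted p of 0.284 without the block. Leaving out replicate 2 of the controls brought it down to 0.37, and the 6 values with 1 library left out ran from 0.37 to 0.85. With the replicate block the SE was 0.138 and the limma adjusted p was 0.0324. The call was lost in the blocked fit without pair 1 (log2 fold change 0.60, adjusted p = 0.0682) and without pair 2 (0.55, adjusted p = 0.0785), and was kept without pair 3 (0.84, adjusted p = 0.0118). ALOX5 lies on the plus strand at chr10:45374176-45446119 (GRCh38, GENCODE), where an antisense gene overlaps it.

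ALOX5AP was at 22.4, 29.7 and 39.1 FPKM in THP-1 controls and at 35.6, 41.1 and 57.2 FPKM with JOA (44.6 ± 11.2, SD, n = 3). ALOX5AP spans chr13:30713478-30764426 (GRCh38, GENCODE) on the plus strand, with no overlapping gene. The groups overlapped, but the pair differences of 0.67, 0.47 and 0.55 on the log2 scale were close to one another. The log2 fold change was 0.56, with an SE of 0.223 and a limma adjusted p of 0.257 without the block. It was 0.36 without replicate 1 of the controls, 0.37 without replicate 3 of the JOA libraries and at most 0.76 with any 1 library left out. With the replicate block the SE was 0.0491 and the limma adjusted p was 0.00602, while the fold stayed below the 0.58 threshold. Leaving out each pair in turn, the adjusted p of the blocked fit ran from 0.00113 to 0.00219, and without pair 2 the log2 fold change of 0.61 passed the fold threshold. It also passed in the blocked fit with TPM scaling (0.59).

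PTGS2 and TBXAS1 were the only 2 of the 8 genes whose THP-1 groups did not overlap, both higher with JOA, as were 14.6% of all genes. PTGS2 was at 0.247, 0.259 and 0.152 FPKM in controls and 0.410, 0.362 and 0.328 FPKM with JOA. Its log2 fold change was 0.56 ± 0.198 (SE, limma adjusted p = 0.212, and 0.104 with the replicate block), so it was not called. TBXAS1 was at 0.406, 0.285 and 0.385 FPKM in controls and 0.444, 0.423 and 0.504 FPKM with JOA. The log2 fold change of TBXAS1 was 0.29 ± 0.168 (SE, limma adjusted p = 0.435, and 0.301 with the replicate block). Both remained below 1 FPKM.

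LTA4H was at 12.5, 14.0 and 15.1 FPKM in controls and 15.5, 14.4 and 16.8 FPKM with JOA (log2 fold change 0.17, limma adjusted p = 0.363, and 0.132 with the replicate block). PLA2G4A was at 5.35, 5.49 and 4.27 FPKM in controls and 5.76, 5.34 and 4.55 FPKM with JOA. The log2 fold change of 0.05 had a 95% interval from -0.23 to 0.33. LTC4S was at 1.54, 1.72 and 1.96 FPKM with JOA (log2 fold change -0.01, 95% interval -0.43 to 0.42).

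PTGS1 was at 1.80, 1.97 and 1.88 FPKM with JOA, inside the control range of 1.56 to 2.27 FPKM, and its log2 fold change was -0.08 (95% interval -0.42 to 0.26). PTGES was below the filter of a mean of 0.1 FPKM, at 0, 0.0968 and 0.168 FPKM with JOA. In a fit without the filter its log2 fold change was 0.18 (95% interval -0.91 to 1.27). No gene of the 10 was lower with JOA in all 3 pairs or without overlap, compared with 19.4% and 8.81% of all genes.

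In MOLM-13 cells, 0 of 9 synthesis genes tested were called, with or without the replicate block, and likewise 0% of 11693 genes. At an unadjusted p under 0.05, limma gave 481 genes without the block and 1295 with it. The median log2 fold change of the 9 was 0.05, against 0.01 over all genes. ALOX5 had the largest estimate. It was at 0.372, 0.302 and 0.186 FPKM in controls (0.287 ± 0.0939, SD, n = 3) and 0.216, 0.0905 and 0.164 FPKM with JOA (0.157 ± 0.0633, SD, n = 3). It was lower with JOA in all 3 pairs, as were 15.7% of all genes. The groups overlapped, and its log2 fold change of -0.59 ± 0.281 (SE) had a limma adjusted p of 0.9997, and 0.444 with the replicate block. Without pair 2 the blocked log2 fold change was -0.35, and without replicate 2 of the JOA libraries the unblocked one was -0.39.

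ALOX5AP was at 86.3, 79.0 and 102.8 FPKM with JOA (89.4 ± 12.2, SD, n = 3), which overlapped the controls. The 95% interval of the log2 fold change, 0.12, ran from -0.12 to 0.36. LTA4H was at 24.3, 26.0 and 24.1 FPKM with JOA, and PLA2G4A at 6.26, 7.60 and 7.27 FPKM, with log2 fold changes of 0.07 and 0.05. TBXAS1 was at 2.37, 2.36 and 2.50 FPKM, with a log2 fold change of 0.05 (95% interval -0.17 to 0.26).

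PTGS1 was at 2.03, 2.32 and 2.38 FPKM with JOA and was higher in all 3 pairs, as were 18.5% of all genes (log2 fold change 0.13, limma adjusted p = 0.9997). PTGS2 was at 0.277, 0.247 and 0.343 FPKM and PTGES at 0.357, 0.235 and 0.186 FPKM with JOA, both overlapping the controls. LTC4S varied widely, at 3.97, 1.20 and 2.75 FPKM with JOA. Its 95% interval ran from -0.85 to 0.88. Replicate 1, the library with high PRG2, had the highest LTC4S in both MOLM-13 groups, and the part of this in the LTC4S values was not tested. Groups without overlap, 5.1% of all genes higher and 4.55% lower, included 0 of the 9 genes.

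**Figure D3:**
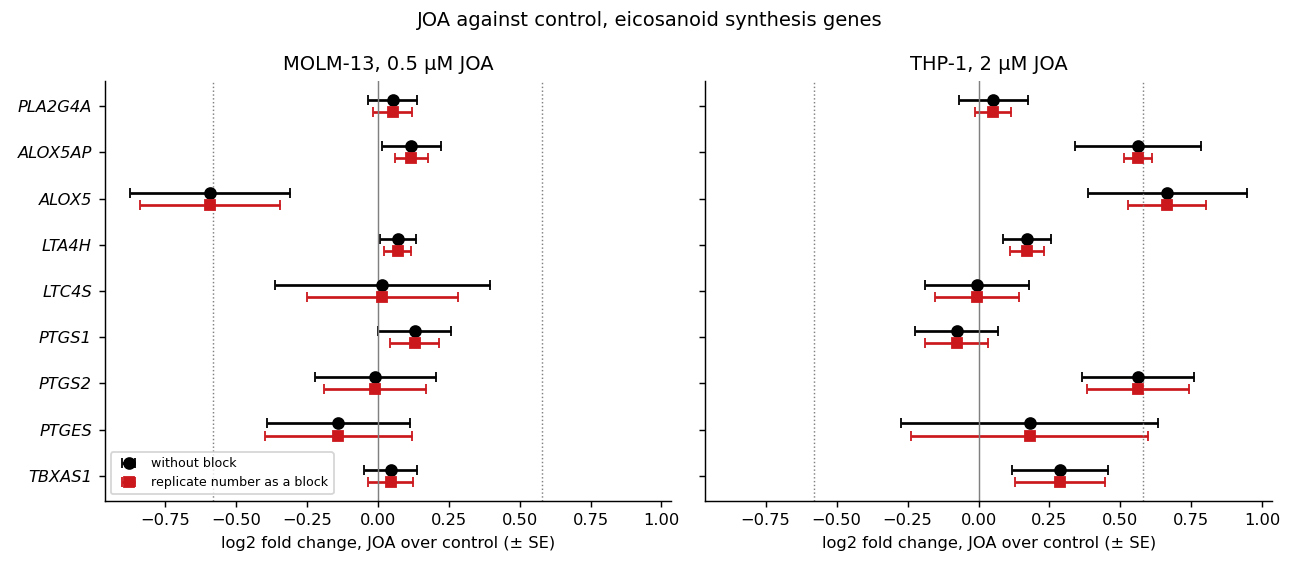
Log2 fold change of 9 synthesis genes, JOA over control (x axis), in MOLM-13 cells (left) and THP-1 cells (right), 3 libraries a group. Black circles are limma estimates without and red squares with the replicate number as a block, bars are SE and dotted lines mark 0.58. The bar of ALOX5AP in THP-1 cells shrinks from 0.223 to 0.0491 with the block, and ALOX5 lies at -0.59 in MOLM-13 and 0.66 in THP-1 cells.

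The 2 responses were compared directly in 1 fit over the 12 libraries. The interaction of line and JOA was called for 0 of 9 synthesis genes and 0% of 12626 genes in limma (914 genes had an unadjusted p under 0.05). With the replicate block it was called for 0 of the 9 and 0.0475% of all genes. ALOX5 had the largest difference, 1.26 ± 0.413 (SE, log2 scale), from a fold change of -0.59 in MOLM-13 and 0.66 in THP-1 cells. Its limma adjusted p was 0.534, and 0.0998 with the replicate block. For ALOX5AP the difference was 0.44 (limma adjusted p = 0.790, and 0.0762 with the replicate block), and for PTGS2 it was 0.57 (0.693 and 0.239).

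**Figure D4:**
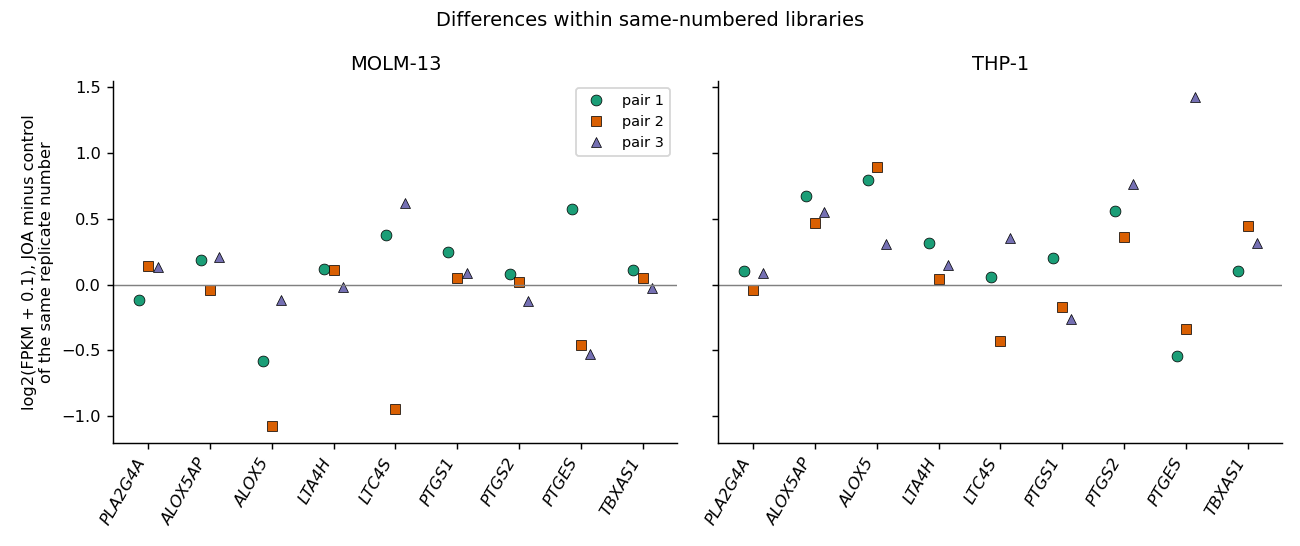
JOA minus control of the same replicate number on the log2(FPKM + 0.1) scale (y axis), for pairs 1 to 3 of each line. ALOX5 lies below 0 in all 3 MOLM-13 pairs and above 0 in all 3 THP-1 pairs, and ALOX5AP lies between 0.47 and 0.67 in THP-1 cells.

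The genes whose pattern over the 12 libraries was most like that of each synthesis gene were found from Pearson's r after subtracting the mean of each line. These r values are descriptions, since the libraries share depth and replicate effects. For ALOX5AP they were PPARG (r = 0.975), a fatty acid-sensing nuclear receptor, and CHURC1 (0.957). For ALOX5 they were NUDT17 (0.929) and FUT11 (0.926), for PTGS2 MTHFS (0.958) and IQGAP2 (0.930), and for TBXAS1 HINT3 (0.950) and FRMD3 (0.921). Among the synthesis genes themselves, ALOX5AP and LTA4H were the most alike (r = 0.810), while ALOX5 and ALOX5AP reached 0.214.

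A further 74 genes around the pathway were examined: phospholipases and ANXA1, arachidonate remodelling enzymes, other lipoxygenases, other terminal synthases, processing enzymes of the peptide leukotrienes, inactivation and export, epoxyeicosanoid enzymes and receptors. In THP-1 cells 50 of them were tested and 0 were called without the block. With the replicate block 2 were called higher and 1 lower. Over all genes tested, 1.27% were called with the block. Their median log2 fold change was 0.05, against 0.02 over all genes. In MOLM-13 cells 49 were tested and 0 were called with or without the block, as over all genes. The median of the 49 was 0.11, against 0.01 over all genes. By sign, 41 of them were higher and 8 lower, against 52.4% of all genes higher.

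ANXA1, a glucocorticoid-induced protein first described as an inhibitor of phospholipase A2, was at 15.9, 11.05 and 15.1 FPKM in THP-1 controls and 26.0, 18.1 and 21.6 FPKM with JOA. The groups did not overlap, and its log2 fold change was 0.64 (limma adjusted p = 0.117, and 0.00602 with the replicate block). PLA2G4B, a paralog of PLA2G4A, was at 1.33, 1.43 and 1.62 FPKM in THP-1 controls and 1.87, 2.18 and 2.88 FPKM with JOA (log2 fold change 0.61, limma adjusted p = 0.122, and 0.0182 with the replicate block). In MOLM-13 cells PLA2G4B varied widely within groups, at 1.94, 0.477 and 0.230 FPKM in controls and 0.333, 1.74 and 1.87 FPKM with JOA. Its reads can be shared with a readthrough transcript from its neighbour JMJD7, so its level is uncertain.

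ALOX15, a lipoxygenase that oxidises arachidonic acid at another carbon, went the other way. It was at 0.935, 0.535 and 0.426 FPKM in THP-1 controls and 0.233, 0.234 and 0.266 FPKM with JOA. The groups did not overlap. JOA and control differed by -1.03 ± 0.251 (log2, SE, limma adjusted p = 0.104, and 0.0395 with the replicate block). In MOLM-13 cells ALOX15 was at 0 to 0.0524 FPKM, and its interaction had a limma adjusted p of 0.387 (0.134 with the block).

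Among the most abundant genes of these lists, COTL1, an actin-binding protein that also binds 5-lipoxygenase, was at 120 to 152 FPKM in MOLM-13 and 183 to 218 FPKM in THP-1 libraries. PTGES3, also known as the HSP90 co-chaperone p23, was at 78.8 to 96.7 and 89.2 to 103 FPKM, and its processed pseudogenes make its level uncertain. ELOVL5, a fatty acid elongase, was at 53.3 to 59.2 and 47.0 to 58.9 FPKM. EPHX1, an epoxide hydrolase, was at 6.02 to 9.001 and 10.8 to 20.8 FPKM. In THP-1 cells it changed by 0.47 on the log2 scale with JOA, below the fold threshold (limma adjusted p = 0.185, and 0.0101 with the replicate block).

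The control libraries were compared for the same lists. Of 55 genes tested, 20 were called higher and 17 lower in THP-1 cells, where 25% and 19% of all genes were. GGT5, which removes glutamate from leukotriene C4, was at 1.89 to 3.53 FPKM in MOLM-13 cells, overlapping GGT1 (2.13 to 3.15 FPKM), and was at 0 to 0.0501 FPKM in THP-1 cells. GGT1 led this list in THP-1 cells, at 8.53 to 10.2 FPKM. Among receptors, CYSLTR1, for cysteinyl leukotrienes, had the highest mean over the 6 MOLM-13 libraries (7.94 to 11.3 FPKM), overlapping LTB4R2 (6.82 to 9.27 FPKM), whose gene overlaps LTB4R. PTGER4, for prostaglandin E2, had the highest mean over the 6 THP-1 libraries (6.42 to 7.86 FPKM), overlapping PTGER2 (5.81 to 7.38 FPKM), so neither pair could be ordered. For export and inactivation, ABCC4, a prostaglandin exporter, led in MOLM-13 cells (6.39 to 6.98 FPKM) and PTGR1, which inactivates leukotriene B4, in THP-1 cells (9.58 to 12.6 FPKM). In THP-1 controls against MOLM-13 controls the log2 fold changes were -4.27 for GGT5, 1.89 for GGT1, -1.11 for CYSLTR1, 0.98 for PTGER4, -0.82 for ABCC4 and 1.16 for PTGR1, with limma adjusted p from 8.53e-07 to 0.000119.

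**Figure D5:**
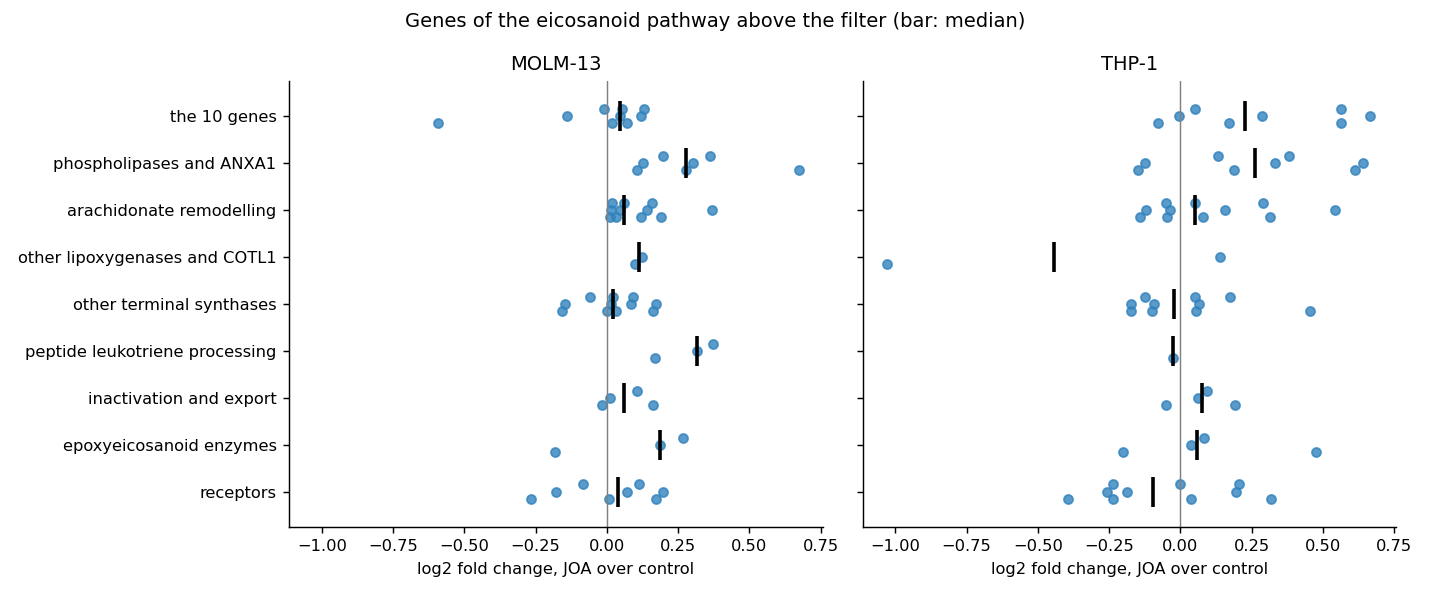
Log2 fold change, JOA over control (x axis), of the tested synthesis genes and of 8 lists of other pathway genes, in MOLM-13 cells (left) and THP-1 cells (right). Points are genes and bars are list medians. The lowest point in THP-1 cells is ALOX15 at -1.03.

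Values of the 10 monocytic markers are given beside these results, and their part in them was not tested. By sign, 6 of them were higher and 4 were lower in THP-1 libraries with JOA, and 0 were called without the block. Without overlap, CD68, SPI1, ITGAM and CD33 were higher there and CD4 was lower, as were 14.6% and 8.81% of all genes. With the replicate block ITGAM was called higher (log2 fold change 0.71, limma adjusted p = 0.0348) and MPO lower (-0.64, limma adjusted p = 0.00659). Of all genes, 1.27% were called in that fit. The summed level of the list was 1020 to 1631 FPKM in THP-1 controls and 1108 to 1385 FPKM with JOA. In MOLM-13 cells 0 markers were called with or without the block, 9 of 10 were higher by sign, and CD68, ITGAM, CD33 and CSF3R were higher without overlap, as were 5.1% of all genes. The summed level there was 2108 to 3349 FPKM in controls and 2658 to 3597 FPKM with JOA. In these bulk samples, fewer cells expressing a gene and less RNA per cell cannot be told apart.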

How the data were processed

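mRNA-seq was analysed in 12 libraries of MOLM-13 and THP-1 cells, 3 of each group. One table of FPKM per gene, deposited by the authors, was made from paired-end reads of stranded libraries. The submitters' processing notes name hg38, Trimmomatic, HISAT2, Cufflinks and HTSeq. Versions, roles and the annotation are not given in the sources used here. FPKM corrects for gene length and mapped fragments, and no other scaling is stated.

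No value was rescaled. In each comparison, genes with a mean of at least 0.1 FPKM were kept, log2(FPKM + 0.1) was taken, and limma 3.58.1 in R 4.3.3 was fitted (eBayes with trend) on all genes tested. A gene was called at a p under 0.05 after Benjamini-Hochberg adjustment and a log2 fold change of at least 0.58 in size, or the adjusted p alone for the interaction. DESeq, the tool of the study, needs counts and was not run. The procedure was tested on simulated data. The simulated libraries were not paired by number, so this could not test what the replicate block gains.

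The replicate numbers come from the sample titles. After subtracting group means, JOA and control libraries of the same number correlated at 0.264 to 0.398 in MOLM-13 and 0.139 to 0.319 in THP-1 cells, and those of different numbers at -0.26 to 0.0168. So the numbers were taken to pair the samples within a line. Between the control groups of the lines the values were 0.0698 to 0.131 for the same number and -0.0794 to 0.0152 for different numbers. What libraries of the same number share was not tested.

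All 10 genes were named. From the 74 other genes, those with the highest mean in each line per list and those called with JOA or in the interaction were named, and LTB4R2, PTGER2 and the cell type markers were named after their values were seen. Genes, lists and motifs were chosen with earlier results of these data known. Gene overlaps are from GENCODE on GRCh38 and promoters from RefSeq on GRCh38.p14. Python 3.11.15 was used for sequences and figures. Alternatives covered the pseudocount, filter, scaling, trend, block, threshold, 1 fit on 12 libraries and leaving out each library.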

Additional observations from a re-analysis of the deposited data

Results flagged for a closer look

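The JOA response of ALOX5 differed between the lines by 1.26 on the log2 scale (THP-1 minus MOLM-13). It was flagged because all 3 same-numbered pairs were lower with JOA in MOLM-13 cells and all 3 were higher in THP-1 cells. Taken singly, these patterns held for 15.7% of all genes tested in MOLM-13 and 29.3% in THP-1 cells. The share of genes with both was not computed. The limma test of the difference itself gave an adjusted p of 0.534, and 0.0998 with the replicate block, so it did not pass correction. Leaving out each of the 12 libraries moved the difference between 0.96 and 1.46. ALOX5 was at 0.0905 to 0.372 FPKM over the MOLM-13 libraries, near the pseudocount of 0.1. A larger pseudocount makes the difference smaller. The doses also differed.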

How the results depend on the processing

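The count of the 10 synthesis genes called with JOA in THP-1 cells depended on the pairing. It was 0 without and 1 with the replicate block. It stayed at 0 under the planned changes of pseudocount, filter, scaling, trend and fit, and was 1 with the unadjusted p and the fold threshold. In alternatives chosen after seeing the data, the replicate block gave 2 with TPM scaling, 1 with median-of-ratios and 1 with upper-quartile scaling, 0 without pair 1, 1 without pair 2 (ALOX5AP) and 1 without pair 3 (ALOX5). In MOLM-13 cells the count was 0 in every setting run. Between the controls it was 5, and 3 with a mean of at least 1 FPKM. There PTGES was lost with a pseudocount of 1, and PLA2G4A was gained with the adjusted p alone. For the interaction it was 0, and 1 (ALOX5) with the unadjusted p. Leaving out each library gave 0 in both lines and for the interaction, and 5 to 6 between the controls. The block changed no other call of a synthesis gene. Upper-quartile scaling moved the median of all genes between the controls by 0.12 (log2). In THP-1 cells with JOA it split the called genes of the whole table into 2 higher and 9 lower, against 7 higher and 10 lower. There 17 genes were called without and 161 with the block.

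Over all settings, 684 values of single synthesis genes kept their direction and side of the threshold and 49 changed sign. None of those was called. With JOA in MOLM-13 cells, LTC4S changed sign to -0.0012 with upper-quartile scaling (with or without the block), -0.16 in the block without pair 1 and -0.28 without pair 3, PTGES to 0.023 without pair 2 and 0.056 without pair 3, and PTGS2 to 0.050 without pair 3. In THP-1 cells, LTC4S changed to 0.017 with TPM scaling (with or without the block) and 0.20 in the block without pair 2, PTGS1 to 0.014 and PTGES to -0.44 without pair 3. Between the controls, PTGS1 changed to 0.048 with TPM and 0.086 with upper-quartile scaling. The interaction of PLA2G4A changed to 0.035 and that of LTC4S to 0.011 with TPM scaling (with or without the block). The cause was not tested.

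Leaving out each library moved some log2 fold changes across 0. In MOLM-13 cells with JOA, LTC4S ran from -0.34 to 0.48, PLA2G4A from -0.0042 to 0.13, PTGES from -0.33 to 0.012, PTGS2 from -0.11 to 0.15 and TBXAS1 from -0.0022 to 0.11. In THP-1 cells, LTC4S ran from -0.12 to 0.20, PLA2G4A from -0.060 to 0.14, PTGES from -0.13 to 0.58 and PTGS1 from -0.25 to 0.013. Between the controls, PTGS1 ran from -0.16 to 0.14. LTC4S stayed below 0 there, from -0.62 to -0.23. The interaction of LTC4S ran from -0.48 to 0.34 and that of PLA2G4A from -0.11 to 0.092.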
